A study of Mus musculus with 6 samples.

Results

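Adipocytes store fat in lipid droplets and secrete adipokines, hormones that report on that store. The 10 genes described here code for 4 secreted products of fat (Lep, Adipoq, Retn and Cfd), 3 proteins of the droplet surface (Plin1, Plin4 and Cidec) and 3 lipases (Lipe, Pnpla2 and Lpl). They were chosen by name: the gene symbol of a row in the authors' table had to equal a listed gene. All 10 had a row among the 17564 genes of the table, and all 10 passed the filter on low counts.

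Whole back skin of 8-week-old wild-type C57BL/6 mice was compared between 3 samples treated with SspA and HDM (T1 to T3) and 3 untreated samples (U1 to U3). SspA is the V8 protease of Staphylococcus aureus, given at 3 µg on shaved and depilated skin together with 10 µg of house dust mite extract (HDM). The application was repeated 3 days later, and skin was taken 7 days after the first application. Untreated skin was shaved and depilated only. The labels do not say when untreated skin was taken. Time since depilation may therefore differ between the groups, and its part was not tested. The labels do not say whether samples of the same group are different mice, so p-values measure only the spread among the samples at hand, and that spread may be technical.

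The layer of white adipocytes under the dermis, beneath the hair follicles, is the main fat of back skin. In a fat cell the droplet is coated by perilipins, which keep lipases off the stored triglyceride at rest. Hormone signals open that coat, after which ATGL (the product of Pnpla2) and hormone-sensitive lipase (Lipe) release fatty acids in turn. Lipoprotein lipase (Lpl) works in the other direction, freeing fatty acids from blood lipoproteins for uptake. The transcription factors PPARγ and C/EBPα switch on most of these genes when a fat cell matures.

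The libraries held 5606959, 5821622 and 7545567 reads in T1, T2 and T3, against 5770072, 4928245 and 5580401 reads in U1, U2 and U3. The deposited values are scaled reads: reads multiplied by a factor per library so that all libraries have nearly the same total. All 10 adipocyte markers set for the check (Adipoq, Plin1, Cidec, Lep, Lipe, Fabp4, Pparg, Slc2a4, Trarg1 and Aqp7) were read in every library, from 107 reads of Aqp7 upward. The skin genes Krt5 and Krt14 of keratinocytes had at least 1657 and 1263 reads in every library. A depth limit touches 9 of the 10 genes, all but Lep: they averaged over 0.2 reads per base of transcript, as did 3003 of 15534 tested genes. No gene in any library exceeded 0.923 reads per base, so reads may have been counted once per position of a transcript. Over all genes, fold changes were lower the more reads per base a gene had, and the deepest library (T3) was treated while the shallowest (U2) was untreated. Reads per base are therefore given with each gene, since depth may add to falls.

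Leptin fell most. Of the 10 genes, 4 fell in treated skin (Lep, Adipoq, Retn and Plin1) at an adjusted p under 0.05 by limma, where 7.23% of all 15534 tested genes were called lower. Without T1 the count was 2 (Lep and Plin1). None rose by limma, edgeR or DESeq2, where limma called 9.26% of tested genes higher. All 10 fold changes were negative, so none was higher at an unadjusted p under 0.05 either, with a median log2 fold change of -0.35, against 0.03 over all tested genes. In 7 of the 10 genes every treated library lay below every untreated one, which held for 15.6% of tested genes. In none did every treated library lie above every untreated one, as in 21.7% of tested genes. In whole tissue, fewer fat cells and less RNA per fat cell cannot be told apart.

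The start regions of the genes that fell under every alternative tried, Lep and Plin1, are shown with that of Adipoq, the adipokine the other genes are set against below. They come from the RefSeq promoter table (GRCm38.p6, the sequence of the mm10 build that the submitters' processing notes name), which held 9 of the 10 genes. Each runs from 250 bases before to 50 bases after the annotated start, 5′ to 3′ along the gene. Lep lies on the plus strand (chr6:29059971-29060270), Plin1 on the minus strand (chr7:79732727-79733026) and Adipoq on the plus strand (chr16:23146286-23146585). Capitals mark matches on either strand to TTGCNNAA, a core of the C/EBP binding site, to AGGTCA, a core bound by nuclear receptors such as PPARγ, to TATAAA, to the GC box GGGCGG and to the E-box CACGTG.
Lep: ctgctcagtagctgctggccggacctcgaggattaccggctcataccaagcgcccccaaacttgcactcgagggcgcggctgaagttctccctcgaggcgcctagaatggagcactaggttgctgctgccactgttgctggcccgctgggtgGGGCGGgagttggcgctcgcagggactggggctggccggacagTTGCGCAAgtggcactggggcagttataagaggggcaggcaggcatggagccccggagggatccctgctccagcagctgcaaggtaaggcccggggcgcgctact
Plin1: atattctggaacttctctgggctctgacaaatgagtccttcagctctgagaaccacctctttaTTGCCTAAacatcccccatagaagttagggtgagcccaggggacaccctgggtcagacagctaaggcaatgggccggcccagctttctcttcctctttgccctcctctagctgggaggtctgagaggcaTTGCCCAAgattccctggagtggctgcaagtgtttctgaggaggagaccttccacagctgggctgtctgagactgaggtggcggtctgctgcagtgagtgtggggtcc
Adipoq: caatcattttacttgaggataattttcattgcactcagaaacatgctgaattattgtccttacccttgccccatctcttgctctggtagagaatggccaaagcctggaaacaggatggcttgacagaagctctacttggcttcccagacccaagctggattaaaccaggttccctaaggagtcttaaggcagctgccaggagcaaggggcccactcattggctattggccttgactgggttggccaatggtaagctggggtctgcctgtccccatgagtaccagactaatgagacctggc
The Lep window held TTGCGCAA 55 bases before the start, which reads the same on both strands, and a GC box 98 bases before it. The Plin1 window held TTGCCTAA and TTGCCCAA, 187 and 58 bases before the start. The Adipoq window held none of the 5 motifs. A C/EBP match was found for 3 of the 9 genes (Lep, Plin1 and a second start of Cidec). The other Cidec window, at the start of the transcript in the authors' table, held none. These 9 genes had 11 windows, and a gene was counted if any of its windows matched. Shares over all promoters are instead counted by window, and 10.8% of all 32851 promoters of that length held a C/EBP match. No window of the 9 genes held AGGTCA or TATAAA, which 16.3% and 13.6% of promoters held, whereas GC boxes were found for 3 genes (35.7% of promoters) and an E-box for Lipe (7.15%). Such a match is a description of the letters in the window.

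**Figure D1:**
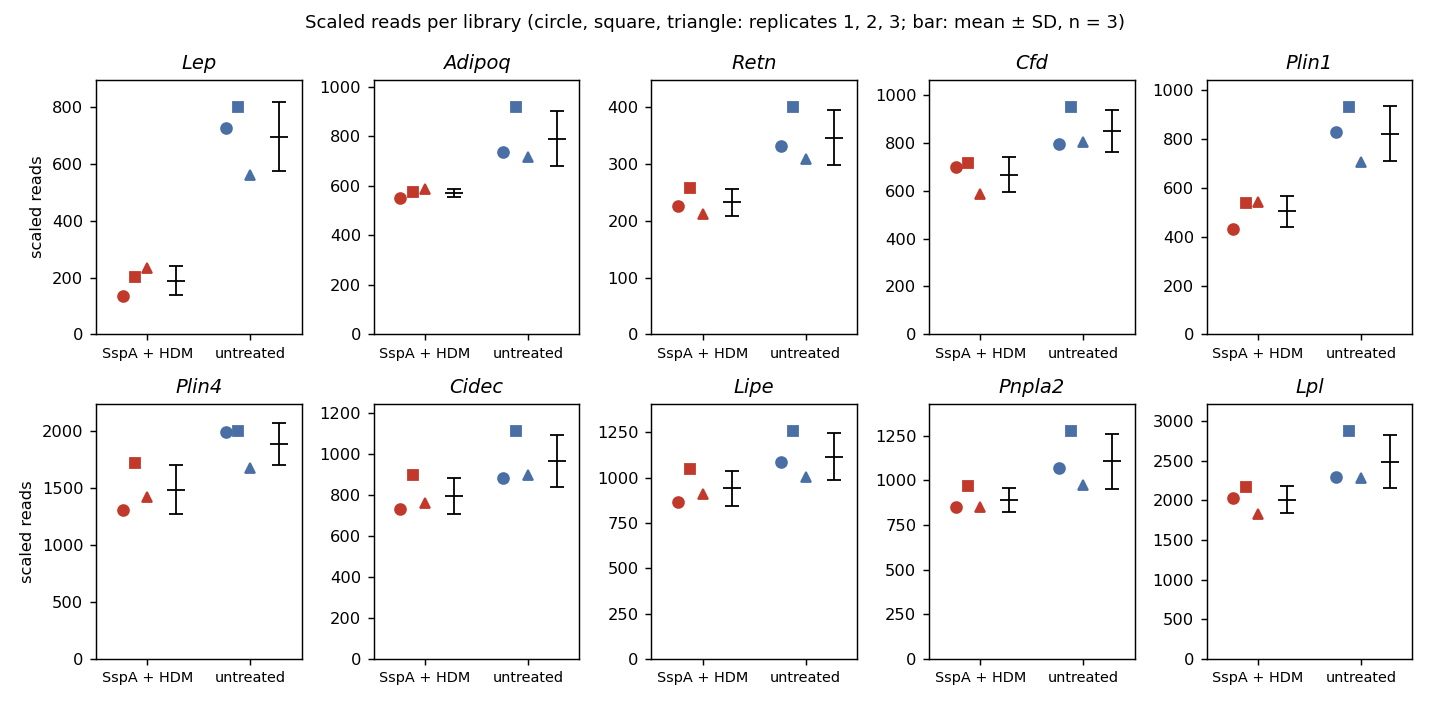
Scaled reads of the 10 genes in each library (vertical axis from 0), SspA + HDM left and untreated right, with the mean ± SD of 3 libraries beside the points. Lep shows the widest gap, with 133 to 234 scaled reads in treated and 560 to 799 in untreated libraries, and U2 is the highest untreated library in every panel.

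Leptin, the hormone by which fat signals its stores to the brain, had 133, 201 and 234 scaled reads in T1, T2 and T3, against 725, 799 and 560 in U1, U2 and U3. The groups were far apart, and even the highest treated library had fewer than the lowest untreated one. Lep averaged 189 ± 51.1 scaled reads in treated and 695 ± 122 in untreated skin (SD, n = 3 each), 3.71-fold lower in treated skin (log2 fold change -1.89 ± 0.21 SE, adjusted p = 0.00156 by limma). This was the 71st largest fall among 7004 tested genes with a negative fold change. The gene (mm10 chromosome 6, 29060221 to 29073876, plus strand) had 581 reads in the treated and 1774 in the untreated group, or 0.0363 to 0.203 reads per base, the fewest of the 10 genes. At that density the trend of all genes with reads per base was 0.05 (log2, treated minus untreated), opposite in sign to the difference of Lep. Lep stayed called under all 19 alternatives, with log2 fold changes of -2.06 to -1.66 and an adjusted p of at most 0.0144.

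Adiponectin (Adipoq), an insulin-sensitizing hormone made by fat cells, had 551, 574 and 585 scaled reads in T1, T2 and T3, against 736, 917 and 716 in U1, U2 and U3. The groups did not overlap, and the treated libraries lay close together while U2 stood above the other untreated ones. Adipoq fell to 570 ± 17.4 in treated skin, against 790 ± 111 scaled reads in untreated skin (log2 fold change -0.46 ± 0.10 SE, adjusted p = 0.0187 by limma). It had 0.397 to 0.581 reads per base, where the trend of all genes was -0.16, and with that trend removed its fold change was -0.30 (adjusted p = 0.0877). Over T1, T2, U1 and U3, the 4 libraries of like depth, it was -0.37 (adjusted p = 0.0147). The call also depended on single treated libraries, with adjusted p = 0.0583 without T1 and 0.0609 without T2, and was lost without a trend in the spread (0.0583). The gene lies on chromosome 16, 23146536 to 23157968.

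Resistin (Retn), which fat cells secrete in mice, had 226, 258 and 213 scaled reads in T1, T2 and T3, against 331, 400 and 308 in U1, U2 and U3. Again the groups did not overlap. Retn fell (log2 fold change -0.57 ± 0.13 SE, adjusted p = 0.0202 by limma). Its transcript is the shortest of the set at 575 bases, with 0.348 to 0.541 reads per base, and the gene lies on chromosome 8, 3655770 to 3659818. Its trend value was -0.14, and with the trend removed Retn remained called at -0.43 (adjusted p = 0.0308). Between T1 and T2 on one side and U1 and U3 on the other, its fold change was -0.40 and was not called (adjusted p = 0.0555). Nor was it called without U1 (adjusted p = 0.0591), U2 (0.0601) or T1 (0.0574).

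Adipsin (Cfd), the protease that starts the alternative complement pathway and is secreted in quantity by mouse fat, had 698, 717 and 584 scaled reads in T1, T2 and T3, against 793, 948 and 802 in U1, U2 and U3. All treated libraries were below all untreated ones, but Cfd did not pass (log2 fold change -0.35 ± 0.11 SE, adjusted p = 0.0541). It had the most reads per base of the 10 genes, 0.674 to 0.805, and the trend of all genes there was -0.21. With the trend removed its fold change was -0.14 (adjusted p = 0.162), and at like depth it was -0.17 (adjusted p = 0.153). Where reads were instead estimated from the share of transcript positions filled, it was -0.52 and called (adjusted p = 0.0155). The value of Cfd thus depended on how reads per base were treated. The gene lies on chromosome 10, 79890853 to 79892655.

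**Figure D2:**
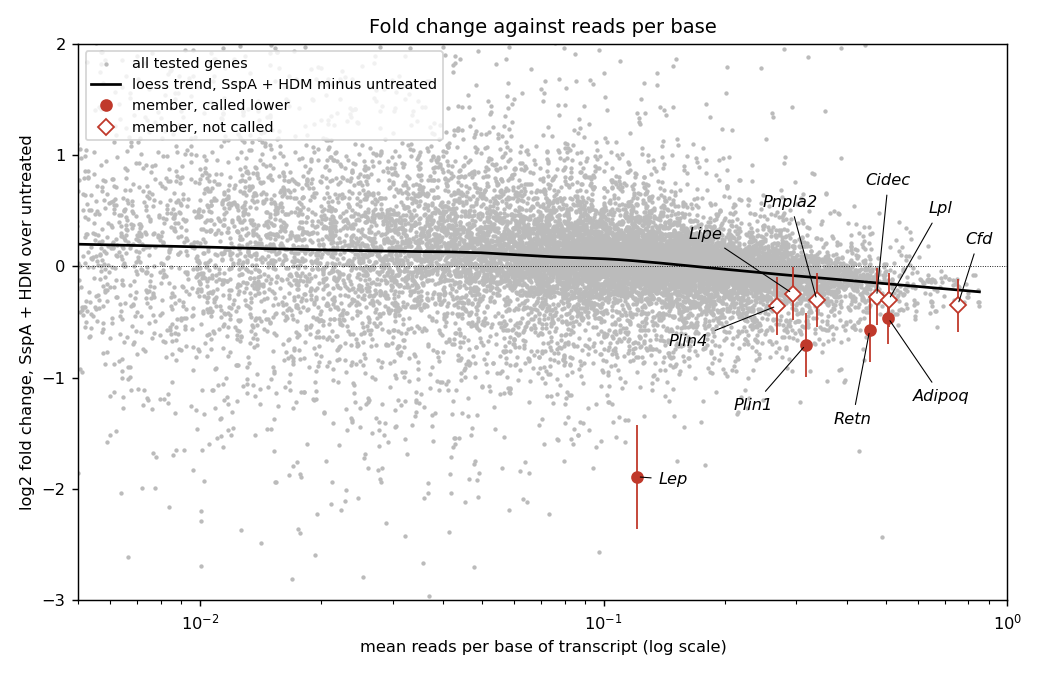
Log2 fold change (SspA + HDM over untreated) against mean reads per base of transcript on a log axis, for all tested genes (grey; 558 lie outside the plotted range) and the 10 genes (red, with 95% intervals; filled where called). The black line is the difference of the loess trends. Lep lies far below it at 0.121 reads per base, while Cfd, at 0.753, lies close to it.

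Among the droplet coat genes, perilipin 1 (Plin1), the coat protein that gates lipolysis in white fat cells, changed most. Plin1 had 431, 538 and 544 scaled reads in T1, T2 and T3, against 831, 931 and 704 in U1, U2 and U3. No treated library reached the lowest untreated one. Plin1 fell (log2 fold change -0.70 ± 0.13 SE, adjusted p = 0.00928 by limma). It had 0.2 to 0.397 reads per base and lies on chromosome 7 (79721164 to 79732776, minus strand). The trend of all genes there was -0.09. Plin1 was called under all 19 alternatives, with log2 fold changes of -0.82 to -0.59 and an adjusted p of at most 0.0383, including -0.67 at like depth (adjusted p = 0.00862).

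Perilipin 4 (Plin4), a coat protein of small new droplets, had 1304, 1722 and 1423 scaled reads in T1, T2 and T3, against 1994, 1997 and 1675 in U1, U2 and U3. T2 lay above U3, so the groups overlapped, and Plin4 did not pass (log2 fold change -0.35 ± 0.12 SE, adjusted p = 0.0673, but 0.0414 without T2). It had 0.201 to 0.316 reads per base and lies on chromosome 17, 56100591 to 56109802. Cidec, whose protein (also called FSP27) moves lipid from small to large droplets, had 734, 898 and 760 scaled reads in T1, T2 and T3, against 885, 1112 and 900 in U1, U2 and U3. Here too T2 overlapped the untreated libraries, and Cidec did not pass (log2 fold change -0.27 ± 0.11 SE, adjusted p = 0.134). The 95% interval of the Cidec fold change, before adjustment, ran from -0.53 to -0.02 on the log2 scale. Its fold change was smaller at like depth (-0.14), with the trend of reads per base removed (-0.13) and without U2 (-0.17), none of them called. Cidec had 0.382 to 0.531 reads per base and lies on chromosome 6, 113424634 to 113435760.

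None of the 3 lipase genes passed the limma test. Pnpla2, whose product ATGL takes the first fatty acid off a triglyceride, had 849, 969 and 854 scaled reads in T1, T2 and T3, against 1069, 1275 and 975 in U1, U2 and U3. The groups were separate by a narrow margin between T2 and U3 (log2 fold change -0.31 ± 0.11 SE, adjusted p = 0.0840; 95% interval -0.55 to -0.06). In the table its row carries a non-coding transcript of the gene, so which transcripts its reads stand for is uncertain. It had 0.277 to 0.375 reads per base and lies on chromosome 7, 141455188 to 141460743. Hormone-sensitive lipase (Lipe), which acts on the diglyceride that ATGL leaves, had 864, 1050 and 909 scaled reads in T1, T2 and T3, against 1089, 1256 and 1003 in U1, U2 and U3. The groups overlapped at T2 and U3, and Lipe had the smallest difference of the 10 genes (log2 fold change -0.24 ± 0.11 SE, adjusted p = 0.15; 95% interval -0.48 to -0.01). It had 0.238 to 0.337 reads per base and lies on chromosome 7, 25379527 to 25395987. Lpl had 2034, 2167 and 1824 scaled reads in T1, T2 and T3, against 2295, 2870 and 2287 in U1, U2 and U3. The groups did not overlap, and Lpl, on chromosome 8 (68880555 to 68906932), did not pass (log2 fold change -0.30 ± 0.11 SE, adjusted p = 0.0887; 95% interval -0.55 to -0.06). It had 0.446 to 0.553 reads per base. At like depth the log2 fold changes were -0.17 for Pnpla2, -0.13 for Lipe and -0.13 for Lpl, with none called. Without U2 they were -0.20 for Pnpla2, -0.16 for Lipe and -0.19 for Lpl, also with none called.

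The authors' deposited table calls 8 of the 10 genes lower at an adjusted p under 0.05, all but Cidec and Lipe, where it calls 7.56% of its 17564 genes lower. In the authors' deposited table the log2 fold changes of Cfd, Plin4, Pnpla2 and Lpl are -0.39, -0.39, -0.35 and -0.35, with adjusted p of 0.0254, 0.0215, 0.0438 and 0.0282. DESeq2 on the recovered reads likewise called 8 of the 10 (8.6% of tested genes). The edgeR quasi-likelihood test called 5 of the 10, Cfd besides the 4 called by limma (7.75% of tested genes). The same 5 were called where reads were estimated from filled positions (7.37% of tested genes). With the trend of reads per base removed, 3 were called (Lep, Retn and Plin1, beside 8.11% of tested genes), and at like depth also 3 (Lep, Adipoq and Plin1, beside 8.85%). So the calls of Lep and Plin1 were shared by all of these fits, and the others were not.

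**Figure D3:**
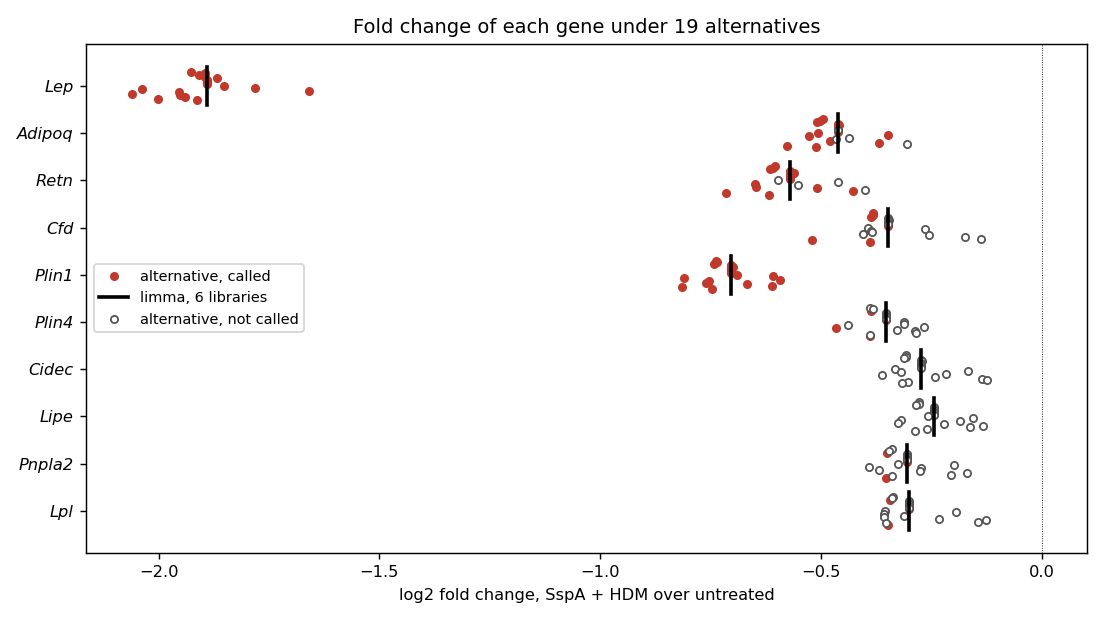
Log2 fold change (SspA + HDM over untreated) of each gene by limma on the 6 libraries (black bar) and under the 19 alternatives (circles, filled where called at adjusted p under 0.05). Lep and Plin1 are filled throughout, Cidec and Lipe are open throughout, and all values are below 0.

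Set against Adipoq within the same library, Lep was lower in treated skin. The ratio of Lep to Adipoq was 0.242, 0.351 and 0.399 in T1, T2 and T3, against 0.985, 0.871 and 0.783 in U1, U2 and U3. Leptin reads, not divided by transcript length, thus nearly matched adiponectin reads in untreated skin and were well below them in every treated library. Per kilobase of transcript Lep was below Adipoq in untreated skin too, at 214 against 644 scaled reads. This ratio changed by -1.43 on the log2 scale (exact two-sided permutation p = 0.1, the smallest that 3 against 3 allows, and 0.18 after adjustment over 9 ratios). It changed by -1.59 at like depth and by -1.43 with reads estimated from filled positions. The ratio of Plin1 to Adipoq was 0.782, 0.937 and 0.930 in T1, T2 and T3, against 1.13, 1.02 and 0.984 in U1, U2 and U3 (-0.24, exact permutation p = 0.1). For Cidec, Lipe and Pnpla2 the ratio to Adipoq was higher in every treated than in every untreated library, by 0.19, 0.22 and 0.16 on the log2 scale (exact permutation p = 0.1 each). Such a difference was common: of the other 15533 tested genes, 70.2% had a ratio to Adipoq that was higher in every treated library. A ratio lower in every treated library, as for Lep and Plin1, was found for 2.88% of them. The ratios of Retn, Cfd, Plin4 and Lpl overlapped between the groups. No ratio passed after adjustment, which this design could not reach.

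**Figure D4:**
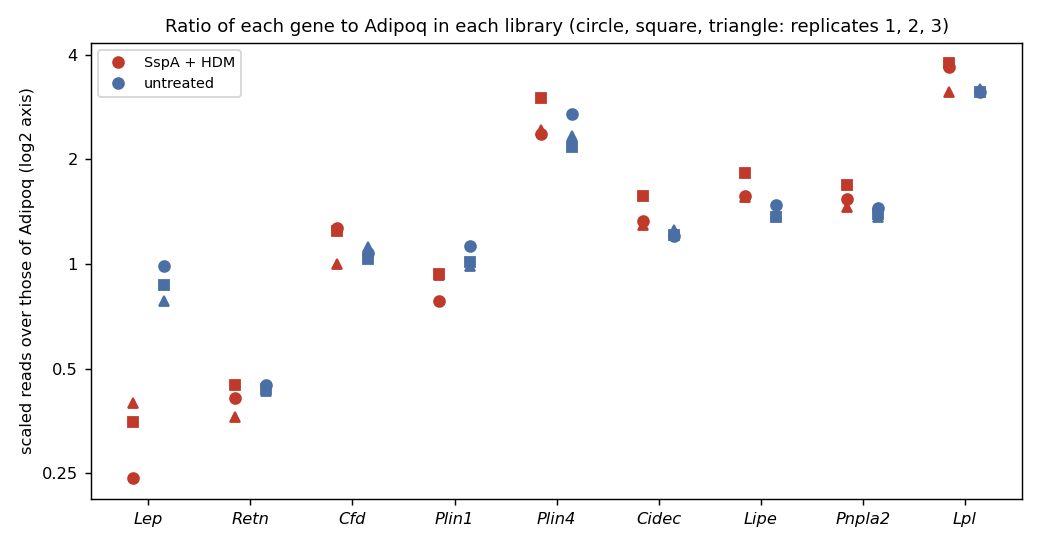
Scaled reads of each gene divided by those of Adipoq in the same library (log2 axis), SspA + HDM left and untreated right. The Lep ratios lie at 0.242 to 0.399 in treated and 0.783 to 0.985 in untreated libraries, while the groups lie closer together for the other 8 genes. Ratios of Plin1, Cidec, Lipe and Pnpla2 also did not overlap between the groups, but by narrower gaps than those of Lep.

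Per length of transcript, Cfd was the most abundant of the genes in both groups, at 728 ± 78.4 scaled reads per kilobase in treated and 927 ± 95 in untreated skin (SD, n = 3 each). Lep was the least abundant in both, at 58.3 ± 15.7 in treated and 214 ± 37.6 scaled reads per kilobase in untreated skin. Neither range overlapped that of its neighbour in the order. If reads were counted once per position, levels of genes with many reads per base, Cfd above all, would be understated. Gaps between these levels may then be compressed. In treated skin Cfd was followed by Lpl (498), Cidec (469), Adipoq (464), Retn (404), Pnpla2 (329), Lipe (293), Plin1 (265) and Plin4 (258). The ranges of neighbours overlapped except between Retn and Pnpla2. In untreated skin the order after Cfd was Adipoq (644), Lpl (615), Retn (602), Cidec (567), Plin1 (432), Pnpla2 (409), Lipe (348) and Plin4 (329), with overlapping neighbours except between Cidec and Plin1. Together the 10 genes took 0.123% to 0.143% of reads in treated and 0.157% to 0.197% in untreated libraries.

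The genes also varied together between libraries of a group. In the untreated group, U2 was the highest library for all 10 genes and U3 the lowest for 8. In the treated group, T2 was the highest for 7 genes and T1 the lowest for 7. T3, the deepest library, was the lowest treated library for Retn, Cfd and Lpl and the highest for Lep, Adipoq and Plin1. U2 was also the shallowest library, but U3 was not the deepest untreated one. The part of depth in these orders was not tested.

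Beyond the 10 genes, 8 lists of other genes of the pathway held 103 genes, of which 100 were tested. In treated skin 26 fell and 7 rose, with a median log2 fold change of -0.17 over the 100. Leaving out single libraries gave as few as 15 lower without U1 and 17 without T1 or T2, and 4 higher without T1 and 2 without T2. In the 4 libraries of like depth 28 were lower and 10 higher. Over all tested genes 7.23% were called lower and 9.26% higher, so the share of pathway genes that rose was close to that of all genes. Many of these genes are also active outside white fat, and fat cells cannot be separated from other cells in whole skin. Of the genes named below, 12 of 29 called ones were called under all 19 alternatives. Without a trend in the spread 12 of them lost their call, and their adjusted p there is given as the no-trend value.

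**Figure D5:**
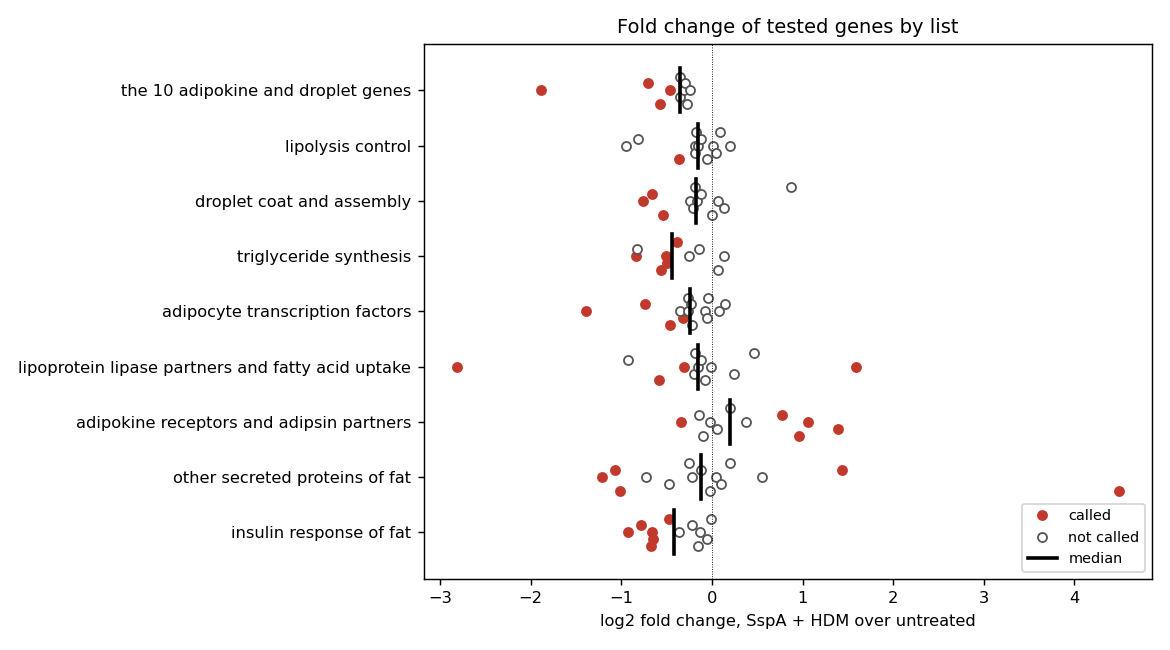
Log2 fold change (SspA + HDM over untreated) of every tested gene in the 10-gene set and in the 8 lists, filled where called, with the median of each list as a bar. Triglyceride synthesis and insulin response genes have medians of -0.44 and -0.42, and the receptor and adipsin partner list is the only one with a positive median, 0.20.

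Triglyceride synthesis had the lowest median of the 8 lists (-0.44), and 5 of 10 tested members fell. None of its genes was called higher under any alternative or had a positive fold change with an unadjusted p under 0.05. That was also so for the insulin response, transcription factor, droplet and lipolysis lists. Agpat2, an acyltransferase whose loss causes lipodystrophy, averaged 360 ± 35.0 in treated and 644 ± 70.8 scaled reads in untreated skin (log2 fold change -0.84, adjusted p = 0.00337). Dgat2, which adds the last fatty acid, averaged 856 ± 39.1 in treated and 1272 ± 116 in untreated skin (-0.57, adjusted p = 0.00506). Gpam (-0.39, adjusted p = 0.0196), Gpd1 (-0.50, adjusted p = 0.0208) and Lpin1 (-0.51, adjusted p = 0.0372) fell over the 6 libraries. Gpam was lost without U1 (adjusted p = 0.0611), T1 (0.0654) or T2 (0.0569) (no-trend 0.0642), and Gpd1 without U1 (0.0569), U2 (0.0536) or T1 (0.0679) (no-trend 0.0667). Lpin1 was lost without U1 (0.106), U2 (0.117), T1 (0.0851) or T3 (0.0525), at like depth (0.0936) with the trend of reads per base removed (0.0521) and with no trend in the spread (no-trend 0.0985). The list's count was 2 without U1, without T1 or without a trend in the spread, and 3 without U2.

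In the insulin response list 6 of 12 tested members fell. The fatty acid synthesis genes Acaca (-0.78, adjusted p = 0.00217) and Fasn (-0.93, adjusted p = 0.00439) had the smallest p of the list and were called under all alternatives. Fasn averaged 2905 ± 488 scaled reads in treated and 5495 ± 630 in untreated skin. These genes also serve sebaceous glands, whose markers fell: 5 of 8 tested sebocyte markers (Pparg and Elovl3 among them) were lower, with summed levels of 2093 to 3330 in treated and 3681 to 4899 scaled reads in untreated libraries. The part of sebaceous glands in the falls was not tested.

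Of the adipocyte transcription factors, 4 of 14 tested members fell. Mlxipl, which codes for the carbohydrate-sensing factor ChREBP, averaged 251 ± 66.4 in treated and 645 ± 92.0 scaled reads in untreated skin (log2 fold change -1.38, adjusted p = 0.00439). Ppargc1a, a coactivator of mitochondrial genes, fell too (-0.74, adjusted p = 0.0142), and both were called under all alternatives. Pparg, the master factor of fat cells and also active in sebocytes, fell over the 6 libraries (-0.46, adjusted p = 0.0252). It was lost without U1 (0.0529), U2 (0.0801), U3 (0.0591), T1 (0.0706) or T2 (0.0818) (no-trend 0.0572). Srebf1, a factor of lipid synthesis, fell (-0.32, adjusted p = 0.0156; 0.0644 without U1, 0.0526 without T2 and no-trend 0.0543). Cebpa had -0.26 and did not pass (adjusted p = 0.0714). It was called under 2 of 19 alternatives, by DESeq2 (0.0402) and in the authors' deposited comparison (0.0446). The list's count was 2 without U1, without T2 or without a trend in the spread.

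Around the droplet, 3 of 12 tested members fell. Fitm1 (-0.76, adjusted p = 0.0162) and Fitm2 (-0.54, adjusted p = 0.0109), whose proteins help droplets bud from the endoplasmic reticulum, were called under all alternatives. Cidea, a relative of Cidec found in brown fat and in sebaceous glands, fell over the 6 libraries (-0.66, adjusted p = 0.0150; 0.0517 without U1 and 0.0580 without T2). Plin2, the coat protein of droplets in most cell types, had -0.16 and did not pass (adjusted p = 0.212). It averaged 775 ± 62 scaled reads in treated and 865 ± 28.4 in untreated skin.

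Of the lipolysis control list, 1 of 13 tested members fell, a share close to the 7.23% of all tested genes. It was Mgll (-0.36, adjusted p = 0.0237), which codes for the lipase of the last step. Mgll was lost with the trend of reads per base removed (-0.23, adjusted p = 0.254), and on leaving out any library but T3 (adjusted p from 0.0597 to 0.0684; no-trend 0.0721), which leaves the list with no call. Without T3 the list had 3 calls. Adrb3, the adrenergic receptor of fat cells, averaged 271 ± 92.2 scaled reads in treated and 472 ± 135 in untreated skin and did not pass (-0.82, adjusted p = 0.0586). Adrb3 was called under 5 of 19 alternatives: without T3 (0.0119), at like depth (0.00651), with the replicate block (0.0294), by DESeq2 (0.00531) and in the authors' deposited comparison (0.00467). Abhd5, which codes for the activator of ATGL, had 0.01 (adjusted p = 0.952), and G0s2, whose product inhibits ATGL, had -0.18 (adjusted p = 0.392). Fabp4, the fatty acid carrier of fat cells, had -0.18 and did not pass (adjusted p = 0.320), at 0.581 reads per base.

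Partners of lipoprotein lipase and uptake genes gave 3 lower and 1 higher of 13 tested members, beside 7.23% lower and 9.26% higher over all tested genes. Vldlr, a lipoprotein receptor, averaged 794 ± 49.6 in treated and 1205 ± 205 scaled reads in untreated skin (-0.59, adjusted p = 0.0130; 0.0519 without T2). Cd36, a fatty acid transporter, fell over the 6 libraries (-0.31, adjusted p = 0.0391). Each library mattered to this call, with adjusted p = 0.0690 without U1, 0.0973 for U2, 0.0573 for U3, 0.106 for T1, 0.0744 for T2 and 0.0667 for T3. It was also lost at like depth (0.0755) and with the trend removed (0.110; no-trend 0.102). Apoc3, which codes for an inhibitor of lipoprotein lipase, had 10 reads in the treated and 36 in the untreated group. Its call (adjusted p = 0.0480) held under 9 of 19 alternatives. That call was lost without U1 (0.131), U2 (0.121), U3 (0.0860), T1 (0.134) or T2 (0.145), and with a pseudocount of 0.5 (0.0515). Nor was Apoc3 called by edgeR (0.124), by DESeq2 (0.145) or in the authors' deposited comparison (0.140) (no-trend 0.0904). Apoc2, which codes for the activator of lipoprotein lipase, rose on few reads, 93 in the treated and 25 in the untreated group (log2 fold change 1.59, adjusted p = 0.0131; 0.0529 without T1 and 0.0584 without T2). Gpihbp1, which anchors the enzyme to capillaries, had 0.47 (adjusted p = 0.141), and the inhibitor gene Angptl4 had 0.25 (adjusted p = 0.3). At like depth both were called higher, with log2 fold changes of 0.75 for Gpihbp1 and 0.50 for Angptl4 (adjusted p = 0.0146 and 0.0149). Gpihbp1 was also called without U2 (adjusted p = 0.0357). The list had 1 lower call without U1, U2, U3 or T1 or without a trend in the spread, and none without T2, and 2 higher calls without U2 and none without T1 or T2.

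The receptors of the adipokines did not pass. Lepr, the leptin receptor, had -0.02 (adjusted p = 0.967), Adipor1 -0.10 (adjusted p = 0.568) and Adipor2 -0.15 (adjusted p = 0.2). Cdh13, the adiponectin-binding T-cadherin of vessels, fell over the 6 libraries (-0.34, adjusted p = 0.0244). Cdh13 was lost without U1 (0.0754), U2 (0.0718) or T1 (0.0679) (no-trend 0.0702). Among the complement partners of adipsin, Cfb, which codes for the factor B that adipsin cleaves, averaged 868 ± 211 in treated and 499 ± 27.7 scaled reads in untreated skin and rose (0.77, adjusted p = 0.0167). Cfb was lost without U2 (0.0550), T1 (0.0585) or T2 (0.0583) (no-trend 0.0569). The complement receptor genes C3ar1 (1.06, adjusted p = 0.0154; 0.0577 without T2, no-trend 0.0522), C5ar1 (0.96, adjusted p = 0.0187) and C5ar2 (1.40, adjusted p = 0.0119; 0.0530 without T2) rose as well. C5ar1 was lost without U1 (0.0572), U2 (0.0607), T1 (0.0618) or T2 (0.0652) (no-trend 0.0551). The receptor genes are typical of myeloid cells, and 9 of 9 tested neutrophil markers (Retnlg among them) were higher, with summed levels of 1535 to 4704 in treated and 481 to 708 scaled reads in untreated libraries. The neutrophil marker Ly6g had 39 reads in treated and 0 in untreated skin, and the part of these cells was not tested. In this list of 11 tested genes 4 rose and 1 fell. The higher count was 2 without U2 or T1 and 0 without T2, and the lower count was 0 without U1, U2 or T1. Without a trend in the spread 1 was higher and 0 lower.

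Other secreted proteins of fat moved both ways, with 3 lower and 2 higher of 15 tested. Rbp4, the retinol carrier, averaged 122 ± 39.7 in treated and 274 ± 33.9 scaled reads in untreated skin (-1.21, adjusted p = 0.0128). Retnla, a relative of resistin made by fat and by alternatively activated macrophages, fell (-1.02, adjusted p = 0.00920), and Sfrp5, an inhibitor of Wnt signals, fell with it (-1.07, adjusted p = 0.0150; 0.0532 without U1). Retnlg, another relative of resistin and a neutrophil marker in mice, had 274, 151 and 52.1 scaled reads in T1, T2 and T3, against 8.79, 2.57 and 4.54 in U1, U2 and U3 (4.50, adjusted p = 0.00340). Lcn2, an iron-sequestering protein that neutrophils and keratinocytes also make, rose (1.44, adjusted p = 0.00946). Within the resistin family, Retn and Retnla were thus lower and Retnlg higher in treated skin.

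Markers of other cells that share some of the 10 genes moved in both directions. Over all tested genes limma called 7.23% lower and 9.26% higher. Macrophages and skeletal muscle also express Lpl and Pnpla2. Of 10 macrophage markers 3 were higher (5 by DESeq2), with summed levels of 5448 to 7436 in treated and 4001 to 5070 scaled reads in untreated libraries. Of 10 skeletal muscle markers 3 were lower (8 by DESeq2), with sums of 14958 to 18428 in treated and 20630 to 25343 scaled reads in untreated libraries, which also did not overlap. At an unadjusted p under 0.05 by limma, all 10 muscle markers were lower and 7 of the 10 macrophage markers higher. Median log2 fold changes were -0.36 for muscle and 0.48 for macrophage markers, beside -0.35 for the 10 genes described here. None of 10 fibroblast and preadipocyte markers was called by limma, edgeR or DESeq2 (1 was lower by limma at an unadjusted p under 0.05, and 0 higher), with sums of 12673 to 15947 in treated and 11304 to 13781 scaled reads in untreated libraries. Markers listed for brown fat (Cidea, Ppargc1a and Elovl3 among them) were lower in 5 of 6 tested, with sums of 1416 to 1541 in treated and 1988 to 2253 scaled reads in untreated libraries. Ucp1, also listed, had no row in the authors' table, and Elovl3 is counted among the sebocyte markers too. Endothelial markers were higher in 2 of 8 (1 by DESeq2 and 1 by edgeR). Their sums were 3924 to 4617 in treated and 3193 to 3773 scaled reads in untreated libraries. Hair shaft and inner root sheath genes were higher in 8 of 12 tested, with sums of 1493 to 6047 in treated and 777 to 829 scaled reads in untreated libraries, and Krt72 had no read in untreated skin. The skin fat layer is known to thicken and thin with the hair cycle. The part of any of these in the values of the 10 genes was not tested.

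Genes whose pattern over the 6 libraries was most like that of Lep or Adipoq were found among 11944 tested genes with a mean of at least 100 scaled reads. Likeness was the root mean square difference of log2(value + 1) after subtracting each gene's mean. The 5 closest to Lep were Adcy1 (0.136), Slc24a3 (0.144), Ptger3 (0.195), Fam57b (0.199) and Il31ra (0.201), with log2 fold changes of -2.09 to -1.55. Adcy1 codes for an adenylyl cyclase and Ptger3 for a prostaglandin E2 receptor. Of the other 9 genes of the set, Plin1 was the closest to Lep at rank 266. The 5 closest to Adipoq were Fyco1 (0.0242), Chpt1 (0.0321), Phkb (0.0325), Gpt (0.0341) and Bcat2 (0.0369), with log2 fold changes of -0.49 to -0.41. Pnpla2 (0.103) and Retn (0.105) were the closest of the set to Adipoq, at ranks 230 and 258, and Lep (0.753) was at rank 11595. These libraries share a scaling to 1 total, and the likeness describes their pattern and nothing of function.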

How the data were processed

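The labels' protocols describe stranded mRNA libraries from 6 whole skin samples, 3 treated with SspA and HDM and 3 untreated. The submitters' processing notes name STAR, DESeq2 and bcl2fastq (2.20.0.422) and the mm10 build. The read counter is not given in the sources used here, and neither are its strand setting and filters. The authors deposited 1 table of 17564 genes with 6 columns of scaled signal, which per the file headers and the values are reads multiplied by a factor per library. The same table holds the authors' comparison on the log2 scale. The p-values deposited with it are raw and adjusted, and a further column gives each transcript's length.

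Each value was a whole multiple of the value of 1 read (100% of values within 0.1 of a whole number), so reads were recovered. Genes passing the edgeR 4.0.16 filter filterByExpr (minimum count 10, minimum total 15) entered a limma fit (version 3.58.1, R 4.3.3) on log2(value + 1), with the trend option and no covariate but the group. P-values were adjusted by Benjamini-Hochberg over 15534 genes. Fold changes are on that scale. The recovered reads tested by edgeR's quasi-likelihood called 1249 genes higher and 1204 lower. DESeq2 was version 1.42.0. The alternatives were other scalings, tools, pseudocounts and filters, a replicate block, leaving out each library, 4 libraries of like depth, and 2 treatments of reads per base.

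The 10 genes, the lists, motifs and tests were chosen with earlier results of these data known. Genes named are the 10, 12 others set by name, the 2 of each list with the smallest p, every called gene of a list with 5 or fewer called in a direction, and the 5 most like Adipoq and Lep. The genes of the tissue check and the markers named fall outside this rule. On simulated data with 15534 genes, of which 200 at the read depth of the 10 genes were lowered, the limma test recovered 2% of those lowered 1.25-fold, 68% at 1.5-fold and 100% at 2-fold and 3-fold, and called 13 of 15334 unchanged genes. Python 3.11.15 and matplotlib 3.10.9 drew the figures.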

Additional observations from a re-analysis of the deposited data

How the results depend on the processing

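All 10 genes kept a negative fold change under the 19 alternatives, and none was called higher under any. The number called lower (4) was 8 with DESeq2, 8 in the authors' deposited comparison and 8 with the replicate block, and 2 to 4 on leaving out single libraries. It was 3 without a trend in the spread, where Adipoq was lost (adjusted p = 0.0583). The median log2 fold change of the 10 genes ranged from -0.435 to -0.288 on leaving out single libraries. It was -0.23 in the 4 libraries of like depth, -0.244 with the trend of reads per base removed and -0.455 with reads estimated from filled positions. Without a trend in the spread 922 genes were called higher and 640 lower, and of the other pathway genes 16 were lower and 4 higher. Leaving out single libraries gave 597 to 1389 higher and 518 to 1333 lower genes, and 15 to 27 lower and 2 to 8 higher pathway genes. The lowest all-gene counts, 597 and 518, were without T2, and counts without U1 (675 and 543), U2 (751 and 644) and T1 (856 and 623) were also well below those over 6 libraries (1439 and 1123). Of the 9 ratios to Adipoq, 5 did not overlap between the groups (2 lower and 3 higher in treated skin), and 5 to 7 did not on leaving out single libraries.

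Samples with the same replicate number did not deviate together (correlations of -0.0850, -0.0545 and 0.0538 over genes for numbers 1, 2 and 3), and not every sample correlated best with its own number. With 3 samples a group, such correlations cannot exclude a pairing, and the labels give only the number. With the replicate block 1348 genes were higher and 1096 lower, and Cfd, Plin4, Pnpla2 and Lpl were called besides the 4 genes, with adjusted p of 0.0379, 0.0443, 0.0436 and 0.0417. The cause of these differences was not tested. Where the trend with reads per base was removed, falls of genes with many reads per base became smaller by construction. At this depth and with 3 libraries a group, differences of the smallest simulated fold, close to those of Cidec, Lipe, Pnpla2 and Lpl, were recovered rarely in simulation.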
